A study of Homo sapiens with 32 samples.

Results

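In THP-1 cells, 38 genes had higher mRNA levels in both lines without active ATP-citrate lyase (ACLY) than in both lines with it, before and after lipopolysaccharide (LPS), and were close to level between untreated and LPS-treated WT cells. They were chosen from the deposited normalized counts, averaged over the 4 libraries of a group. A member had a symbol and a mean of at least 30 over all 32 libraries, the WT LPS mean lay between 0.8 and 1.25 times the WT mean, and the KO and the HA means were each at least 1.5 times the WT and the SA means, in untreated cells and after LPS, which makes 8 ratios. Of 60107 genes, 10392 passed the first step, 9486 the second and 48 the third. From these the rule left out by name 10 genes of the MHC class II and S100A families, among them CD74, HLA-DRA and S100A8, which leaves 38 members. Because measured values chose the members, their differences between KO or HA and WT or SA, and the WT response to LPS, are given as descriptions with no test.

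THP-1 is a human monocytic leukemia line. The 32 libraries fall into 8 groups of 4: KO, WT, HA and SA cells, each untreated or given LPS, the outer membrane lipid of Gram-negative bacteria that monocytes sense, for 3 hours. KO cells lack ACLY, whereas the WT, HA and SA lines are KO cells to which lentivirus and puromycin selection returned wild-type ACLY, the catalytically inactive H760A mutant or the S455A mutant that cannot be phosphorylated at that serine. The labels give 100 ng/ml LPS, and a paragraph of the methods gives another concentration. All 4 lines therefore share the knockout, there is 1 line per genotype, and whether KO cells were also transduced, or descend from 1 clone, is not stated in the sources used here, so that other differences between the lines and the genotype cannot be told apart. The labels do not say whether the 4 libraries of a group came from separate cultures. The methods speak of independent experiments in general, without naming these libraries, so p-values measure the spread between libraries, which may in part be technical.

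ACLY splits citrate from the mitochondria into oxaloacetate and acetyl-CoA, the building block of fatty acids and cholesterol and the donor of acetyl groups for histones. LPS acts through its surface receptor and induces cytokine genes within hours through NF-kB, and interferon genes through IRF transcription factors. Secreted interferon then induces antiviral genes through STAT and IRF proteins that bind response elements in their promoters. The 38 members include genes of this antiviral kind next to lysozyme and other products of phagocytes, lysosomal proteins, enzymes of lipid metabolism and adhesion molecules.

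The libraries held 6504099 to 14750815 reads assigned to genes (median 10247620). Values are reads divided by size factors shared by all 32 libraries, called normalized counts here, and log2 fold changes are differences of log2(normalized count + 1). The kit reads the 3′ end of a transcript. In 1 library of every group the values deviated most from those of the rest of its group (SD of the deviations over the genes, 0.51 to 1.38 on the log2 scale). These were replicate 3 of WT, WT LPS, KO and KO LPS and replicate 1 of HA, HA LPS, SA and SA LPS, the farthest being SA LPS replicate 1, in which 13460 genes were detected against at least 17383 in the other 3 of its group. ACLY itself was read at 102 ± 11.4 normalized counts in WT, 88.5 ± 17.4 in KO, 96.7 ± 28.9 in HA and 143 ± 27.8 in SA cells (SD, n = 4). A read of the 3′ end does not check a knockout that leaves the transcript in place, nor a transgene without the native 3′ end. Of the 23 monocyte markers that are not members, 23 had a mean of at least 10, while the T and NK cell genes CD3E, CD3G, CD8B and KLRD1 were at 0 in all libraries. All 10 erythroid and megakaryocyte genes had a mean below 1. Summed over the whole list, the monocyte markers reached 28535 to 32665 normalized counts in KO cells, against 22435 to 25082 in WT, 22322 to 23177 in SA and 23955 to 27183 in HA, so the KO range lay above the others. Its part in the results was not tested.

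The members shared the direction that the rule required, with unequal sizes. Their median log2 fold change was 1.3 for KO against WT and 1.31 for HA against WT in untreated cells, and 1.52 and 1.27 after LPS. Against SA, the medians were 1.37 for KO and 1.17 for HA untreated, and 1.54 and 1.20 after LPS. Over all 12406 genes tested these 8 medians lay between -0.03 and 0.04. The libraries separated for most members. Every KO library lay above every WT library for 33 of 38 members in untreated cells, where 5.90% of all genes tested did so, and for 32 after LPS, against 6.73%. Every HA library lay above every WT library for 30 members untreated, against 9.0% of all genes, and for 32 after LPS, against 7.09%. Against SA, KO was separated for 32 and 29 members (5.26% and 4.76% of all genes) and HA for 29 and 27 (6.11% and 5.51%). In 19 members all 8 comparisons were free of overlap, against 0.621% of all genes, and since the rule used these comparisons nothing is read from the counts. The KO and HA comparisons share their WT and SA libraries. In bulk RNA such as this, fewer cells of a type and less RNA per cell cannot be told apart.

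**Figure D1:**
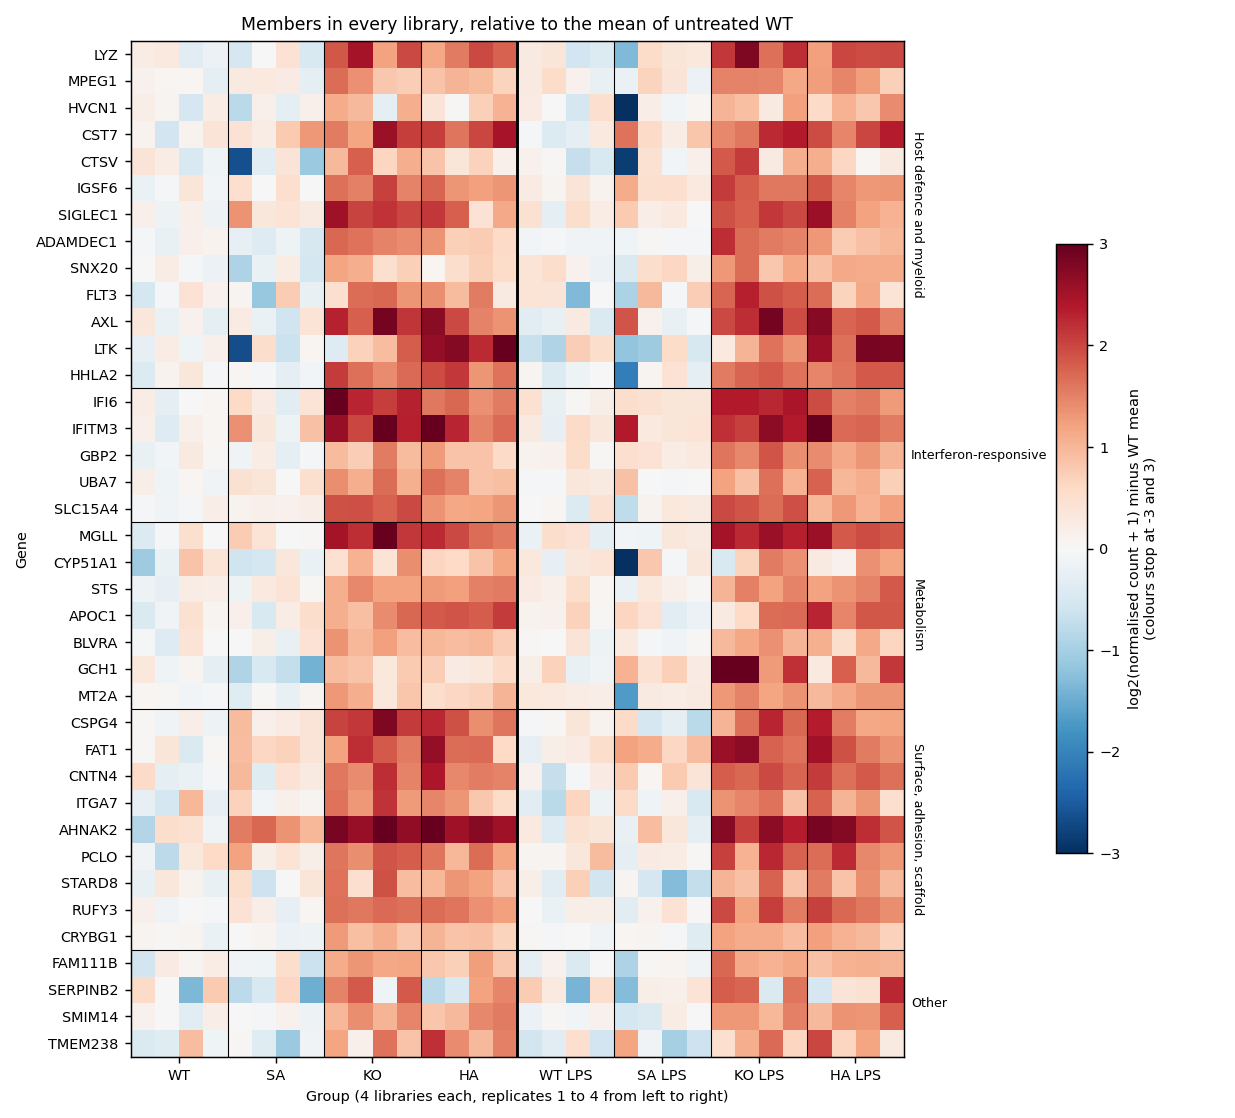
Each row is 1 of the 38 genes, grouped by role, and each column 1 of the 32 libraries. Colour gives log2(normalized count + 1) minus the mean of the 4 untreated WT libraries, red for higher and blue for lower, on a scale that stops at -3 and 3. The KO and HA columns are mostly red on both sides of the thick line that divides untreated from LPS-treated cells. Some of their cells lie below the WT mean, such as SERPINB2 in HA replicate 1 and HVCN1 in KO replicate 3. The first SA LPS column holds dark blue cells for HVCN1, CTSV and CYP51A1 and a dark red cell for IFITM3.

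The rule was also applied with 1 replicate number held out of every group. It chose 44 genes without number 1, 36 without number 2, 27 without number 3 and 30 without number 4. Only 27, 29, 22 and 26 of these, in the same order, are among the 38 members. The shares below therefore describe the newly chosen genes and not the 38. In the held-out libraries, all 8 ratios were above 1 for 23 of 44, 30 of 36, 24 of 27 and 28 of 30 of these genes, against 2.86%, 3.74%, 8.08% and 5.26% of all genes tested. All 8 were at least 1.5 for 15, 18, 15 and 18 of them, against 0.645%, 0.669%, 0.798% and 0.871%. The median of the held-out ratios was 2.60, 2.30, 2.37 and 2.32. Number 1, with the lowest share, holds the SA LPS library that stands apart. Applied without the 8 farthest libraries, the rule gave 36 genes, of which 27 are among the 38. In the other 24 libraries, which had themselves chosen the members, the lowest of the members' ratios was 0.96.

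On the deposited values, the smallest of the 8 ratios was highest in LYZ (2.98), HHLA2 (2.81), MGLL (2.75), CSPG4 (2.40) and AXL (2.30). The order differed on the shared size factors, where HHLA2 had 3.34, LYZ 3.08, RUFY3 2.56 and AXL 2.48. LYZ (chr12:69348381-69354234, plus strand; GENCODE 44 on GRCh38, as for all positions) encodes lysozyme, which cuts bacterial cell walls. Its normalized counts in untreated cells were 5599.6, 5804, 3768 and 4230.4 in WT and 3367, 4794, 6413 and 3497 in SA, in the order of the replicates, against 17389.7, 26943, 10957 and 18948 in KO and 10662, 13962, 18939.6 and 16252 in HA. After LPS they were 5725, 6089.6, 3227 and 3600.0 in WT, 1913, 6994, 6163 and 5910.0 in SA, 20858, 33229, 15088 and 21991 in KO and 11112, 19036, 18595 and 18905 in HA. Every KO and HA library lay above every WT and SA library, and the farthest library was the lowest of its group in all 8 groups. The log2 fold change to WT was 1.89 for KO and 1.62 for HA in untreated cells.

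ADAMDEC1 (chr8:24384285-24406013, plus strand), a secreted metalloprotease-like protein of macrophages and dendritic cells, had 3 levels. Untreated WT libraries held 684, 600.3, 781 and 759.6 and SA libraries 589, 541, 632 and 503 normalized counts, KO libraries 2313, 2175, 1988 and 1875 and HA libraries 1785, 1148, 1198 and 1044. With LPS, the values were 661, 671, 653 and 656 in WT, 640.2, 717, 670.0 and 670.3 in SA, 3279.5, 2247, 2086 and 1963 in KO and 1719, 1192, 1294 and 1399 in HA. WT and SA were lowest, HA stood in the middle and KO highest, and no KO library overlapped an HA library in either state.

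The other members of phagocytes and of the immune surface differed more in how cleanly they separated. MPEG1, a pore-forming protein that attacks engulfed bacteria, had means of 304 ± 35.7 in WT, 338 ± 58.7 in SA, 695 ± 219 in KO and 557 ± 58.4 in HA cells (SD, n = 4), without overlap in any of the 8 comparisons. IGSF6, an immunoglobulin-like receptor of myeloid cells, was also free of overlap in all 8, with 219 ± 40.1 in WT and 704 ± 134 in KO cells. SIGLEC1, the sialic acid receptor of macrophages, had 134 ± 16.6 in WT, 211 ± 85.7 in SA, 615 ± 116 in KO and 382 ± 179.5 in HA cells. Its 4 HA libraries ran from 180.4 to 586, so that the lowest of them lay within the SA range. The lysosomal pair of CST7, cystatin F, an inhibitor of cysteine proteases, and CTSV, a cysteine protease of the family it inhibits, were low. CST7 ran from 28.5 to 56.0 in WT and from 98.4 to 261 in KO cells, and CTSV from 34.7 to 63.0 and from 75.7 to 170.4. Of the 8 comparisons, 5 were free of overlap for CST7 and 3 for CTSV. HVCN1, the proton channel that sustains the oxidative burst, was free of overlap in 3. Its KO libraries held 409, 374, 154 and 403, and replicate 3 fell into the WT range of 132 to 221. SNX20, a sorting nexin that binds the selectin ligand PSGL-1, was free of overlap in 6. It had 431 ± 50.8 in WT, 798 ± 177 in KO and 600 ± 108 in HA cells. On these shared size factors, the untreated HA mean was only 1.39 times the WT mean for SNX20, 1.42 for CTSV and 1.48 for HVCN1. The limit of 1.5 was met on the deposited values.

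Receptor genes of immune and progenitor cells formed another share of the list. HHLA2 (chr3:108296529-108378285, plus strand), a ligand of the B7 family that acts on T cells, read 31.5, 45.2, 53.8 and 41.1 normalized counts in WT, 43.8, 41.1, 34.5 and 39.6 in SA, 185, 134, 114 and 139.8 in KO and 167, 187, 107 and 131 in HA cells. After LPS the libraries held 44.9, 31.2, 37.5 and 42.8 in WT, 9.26, 44.9, 56.9 and 34.2 in SA, 127, 144, 153 and 132 in KO and 118, 130.3, 154 and 153 in HA. No KO or HA library fell below 107 and no WT or SA library rose over 56.9.

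AXL (chr19:41219223-41261766, plus strand) encodes a receptor tyrosine kinase of the TAM family, which binds GAS6 on dying cells. Untreated, it stood at 80.2, 54.4, 68.3 and 51.6 in WT, 74.4, 54.5, 41.1 and 83.9 in SA, 315, 221, 468 and 281 in KO and 415, 249.9, 177 and 162 in HA libraries. LPS-treated libraries held 49.4, 53.8, 76.2 and 46.0 in WT, 236, 68.1, 53.4 and 61.6 in SA, 250.3, 293, 462 and 247 in KO and 419.9, 212, 227 and 181 in HA. The only overlap came from SA LPS replicate 1, which read 236 where the other 3 SA LPS libraries held at most 68.1. The other 2 receptor kinases were low. FLT3, the receptor of early blood progenitors, read 19.5 ± 5.37 in WT and 50.8 ± 17.4 in KO cells, and 4 of its 8 comparisons were free of overlap. LTK, leukocyte receptor tyrosine kinase, is described with the differences between KO and HA.

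IFI6, IFITM3, GBP2 and UBA7 belong to the interferon response, and SLC15A4 serves the endosomes in which nucleic acid sensors signal. IFI6 (chr1:27666064-27672212, minus strand), an antiviral membrane protein, had the second highest mean of the 38. Untreated libraries held 6695, 4699, 5798 and 5974 normalized counts in WT, 8690.0, 6813, 4607 and 7631 in SA, 46213, 28027, 24077 and 28589 in KO and 17118, 18816, 14750.4 and 17019.7 in HA. After LPS these were 7916, 4935, 5876 and 6483 in WT, 8295, 7893, 7392 and 7334 in SA, 29817, 29707, 27523 and 31506 in KO and 22138, 16463, 17233 and 13951 in HA. The groups formed 3 steps as for ADAMDEC1, with all KO libraries above all HA libraries and all HA libraries above all SA and WT libraries. The log2 fold change to WT was 2.42 for KO and 1.55 for HA untreated and 2.25 and 1.47 after LPS.

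IFITM3 (chr11:319676-329475, minus strand), which blocks the entry of viruses from endosomes, had the highest mean. It read 5654, 3881, 5649 and 5314 in WT, 13151, 6381, 4545 and 9355 in SA, 30869, 20267, 44688 and 25356 in KO and 41593, 24887, 14219.7 and 16467 in HA cells. The LPS groups held 6144, 4277, 7519 and 6404 in WT, 26526, 6229.5, 6567 and 6688 in SA, 23279, 21039, 32460.2 and 26228 in KO and 44493, 16423, 16956 and 15016 in HA. SA LPS replicate 1, at 26526, lay within the KO LPS and HA LPS ranges, and the other SA LPS libraries held at most 6688. IFITM3 shares long stretches with its neighbours IFITM1 and IFITM2, between which counting can split reads, so its level is uncertain. GBP2, a guanylate-binding GTPase of host defence, had 366 ± 55.0 in WT, 353 ± 52.0 in SA, 771 ± 203 in KO and 685 ± 143 in HA cells. UBA7, the enzyme that activates ISG15 for attachment to proteins, had 258 ± 26.9, 325 ± 45.1, 648 ± 136 and 622 ± 171 in the same order. GBP2 was free of overlap in all 8 comparisons and UBA7 in 6. GBP2 has a paralog, GBP7, that overlaps it on the same strand.

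SLC15A4 (chr12:128793194-128823958, minus strand) carries histidine and small peptides out of endolysosomes. Its untreated libraries held 196, 193, 199 and 238 in WT, 222, 229, 225 and 237 in SA, 777, 794, 705 and 814 in KO and 522, 459, 466 and 520.2 in HA. After LPS they held 205, 214, 154 and 281 in WT, 122, 221, 257 and 249 in SA, 819.6, 759, 661 and 791 in KO and 412, 512, 425 and 481 in HA. KO stood highest and HA between KO and the active lines in both states, with no overlap between these 3 levels.

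The promoters of IFI6 and IFITM3 are shown because they alone among the 25 members' promoters at hand held the core of the interferon-stimulated response element. The letters searched were GAAANNGAAA on both strands, in the 250 bases before to 50 after the start that RefSeq gives on GRCh38.p14. Each sequence below is the 250 bases before the start, 5′ to 3′ on the gene's strand, with the matches in capitals.
IFI6, chr1:27672193-27672442, minus strand: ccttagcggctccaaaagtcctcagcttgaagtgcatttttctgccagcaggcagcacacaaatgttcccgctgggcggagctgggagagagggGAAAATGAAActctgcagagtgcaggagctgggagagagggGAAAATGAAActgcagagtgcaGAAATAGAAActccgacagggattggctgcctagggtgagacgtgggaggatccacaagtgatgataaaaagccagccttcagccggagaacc
IFITM3, chr11:320861-321110, minus strand: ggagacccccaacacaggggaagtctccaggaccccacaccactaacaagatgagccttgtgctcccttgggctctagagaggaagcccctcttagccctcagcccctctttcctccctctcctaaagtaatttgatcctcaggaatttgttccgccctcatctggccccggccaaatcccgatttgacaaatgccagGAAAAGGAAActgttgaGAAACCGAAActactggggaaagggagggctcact
IFI6 held 3 matches, whose first bases lie 156, 115 and 93 bases before the start, and IFITM3 held 2, at 52 and 35 bases. Of the 38 members, 25 had a promoter in the RefSeq table. ADAMDEC1, CST7, FAM111B, GBP2, GCH1, HVCN1, ITGA7, LYZ, MGLL, MPEG1, SIGLEC1, SNX20 and UBA7 are named only. The element was found in 8% of the members' promoters against 2.91% of the 9170 promoters of genes tested. The AP-1 letters TGANTCA stood in 4 of 25 (HHLA2, MT2A, SERPINB2 and STARD8; 16% against 4.17%), the interferon-gamma activated site TTCNNNGAA in MT2A, STARD8 and STS (12% against 6.31%) and the PU.1 core GAGGAAG in 4 (16% against 14.6%). The GC box GGGCGG (76% against 70.7%), CCAAT (36% against 37.2%), TATAAA (8% against 5.4%) and CACGTG (4% against 10.5%) were searched as well. Fewer than 10 CpG were counted in 8 of 25 promoters, or 32%, against 10.6%, with the fewest in SERPINB2, HHLA2, IGSF6 and STS. A match is a description of letters and not of a bound site.

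Metabolic genes among the members came from several pathways. MGLL (chr3:127689062-128052190, minus strand) encodes monoacylglycerol lipase, which frees fatty acids from monoacylglycerols. In untreated cells it read 73.0, 92.9, 134 and 95.4 in WT, 163, 129, 95.3 and 99.0 in SA, 554, 449.9, 903 and 423 in KO and 462, 384, 309 and 287 in HA. LPS-treated cells held 83.8, 140.5, 131 and 79.2 in WT, 91.5, 88.6, 123 and 117 in SA, 546, 463, 587 and 493 in KO and 575, 347, 379 and 355 in HA. No library of KO or HA came below 287 and none of WT or SA above 163. The gene SEC61A1 lies across MGLL on the other strand, and whether counting used the strand is not given in the sources used here.

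MT2A (chr16:56608584-56609497, plus strand), a metallothionein that binds zinc and copper, was the member with the fourth highest mean. The WT libraries held 7589, 7437, 6858 and 7057 and the SA libraries 5655, 7390.0, 6185 and 7633, against 17679, 15504, 9044 and 12784 in KO and 10443, 11141, 11629 and 14615 in HA. After LPS they were 9016, 8869, 8389 and 8304 in WT, 2238, 8648, 8414 and 8649.5 in SA, 17788, 20442, 16457 and 18449 in KO and 14239.5, 15956, 18035 and 18029 in HA. All 8 comparisons were free of overlap, and SA LPS replicate 1 was far below the rest of its group. Reads of MT2A can be shared with its near-identical MT1 paralogs. The other metabolic members were BLVRA, biliverdin reductase, with 369 ± 85.8 in WT and 793 ± 109 in KO cells, and STS, steroid sulfatase, with 129 ± 21.8 and 305 ± 32.5. Both were free of overlap in all 8 comparisons. APOC1, an apolipoprotein, was free of overlap in 6, and GCH1, which makes the first step of tetrahydrobiopterin synthesis, in 5. CYP51A1, a demethylase of cholesterol synthesis, was low and scattered. It read 11.5, 21.8, 45.9 and 33.3 in WT and 34.6, 52.9, 33.8 and 67.2 in KO cells and was free of overlap in 2 comparisons, so its place in the list rests on group means.

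Genes of adhesion and of the cytoskeleton made up the next group. CSPG4 (chr15:75674322-75712848, minus strand), a membrane proteoglycan that binds collagen, read 115, 104, 129 and 101 in WT, 216, 124, 132 and 145 in SA, 460.3, 491, 779.8 and 482 in KO and 536, 424, 294 and 344 in HA cells. After LPS the libraries held 109, 114, 144 and 120.5 in WT, 167, 77.7, 91.7 and 63.3 in SA, 225, 349.7, 545 and 367 in KO and 571, 322, 249.6 and 255 in HA. All comparisons were free of overlap, and in each of the 8 groups the farthest library was the highest.

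AHNAK2 (chr14:104937244-104978374, minus strand), a very large scaffold protein, was the member with the largest log2 fold change of KO to WT in untreated cells. It stood at 11.5, 31.8, 30.2 and 20.1 in WT, 66.3, 74.1, 56.7 and 44.3 in SA, 163, 138, 232 and 144 in KO and 188, 131, 151 and 131 in HA. With LPS the values were 26.9, 16.5, 30.5 and 28.5 in WT, 18.5, 42.4, 27.9 and 18.0 in SA, 151, 94.0, 145 and 115 in KO and 162, 152, 105 and 83.1 in HA. The untreated SA libraries formed a level of their own between WT and the lines without active ACLY.

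RUFY3 (chr4:70704204-70808619, plus strand), an adaptor that positions lysosomes along microtubules, read 129, 109, 115 and 114 in WT, 156, 135, 98.6 and 122 in SA, 367, 350.4, 379.8 and 368 in KO and 376, 354, 301 and 277 in HA. After LPS they were 117, 101, 131 and 132 in WT, 91.5, 126, 158 and 119.7 in SA, 466, 270.0, 492 and 344 in KO and 487, 386, 351 and 309 in HA. The lowest KO or HA value, 270.0, lay above the highest WT or SA value, 158. CRYBG1 (chr6:106360717-106572017, plus strand), a protein with crystallin-like repeats that binds actin, read 1046, 1011, 1051 and 865 in WT, 997, 1046, 877 and 894 in SA, 2408, 1859, 2095 and 1743 in KO and 2009, 1807, 1809 and 1585 in HA. In LPS-treated cells it read 1022, 956, 1004 and 921 in WT, 1033, 1043, 951 and 769 in SA, 2274, 2157, 2160.1 and 1888 in KO and 2319, 2039, 1955 and 1609.8 in HA. No WT or SA library reached any KO or HA library. FAT1, an atypical cadherin, CNTN4, a contactin of nerve cells, ITGA7, a laminin-binding integrin chain, PCLO, a scaffold of synapses, and STARD8 had untreated WT means of 69.2, 32.2, 56.0, 64.3 and 50.8 and KO means of 232, 105, 161, 196 and 129. Only CNTN4 of these 5 was free of overlap throughout.

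**Figure D2:**
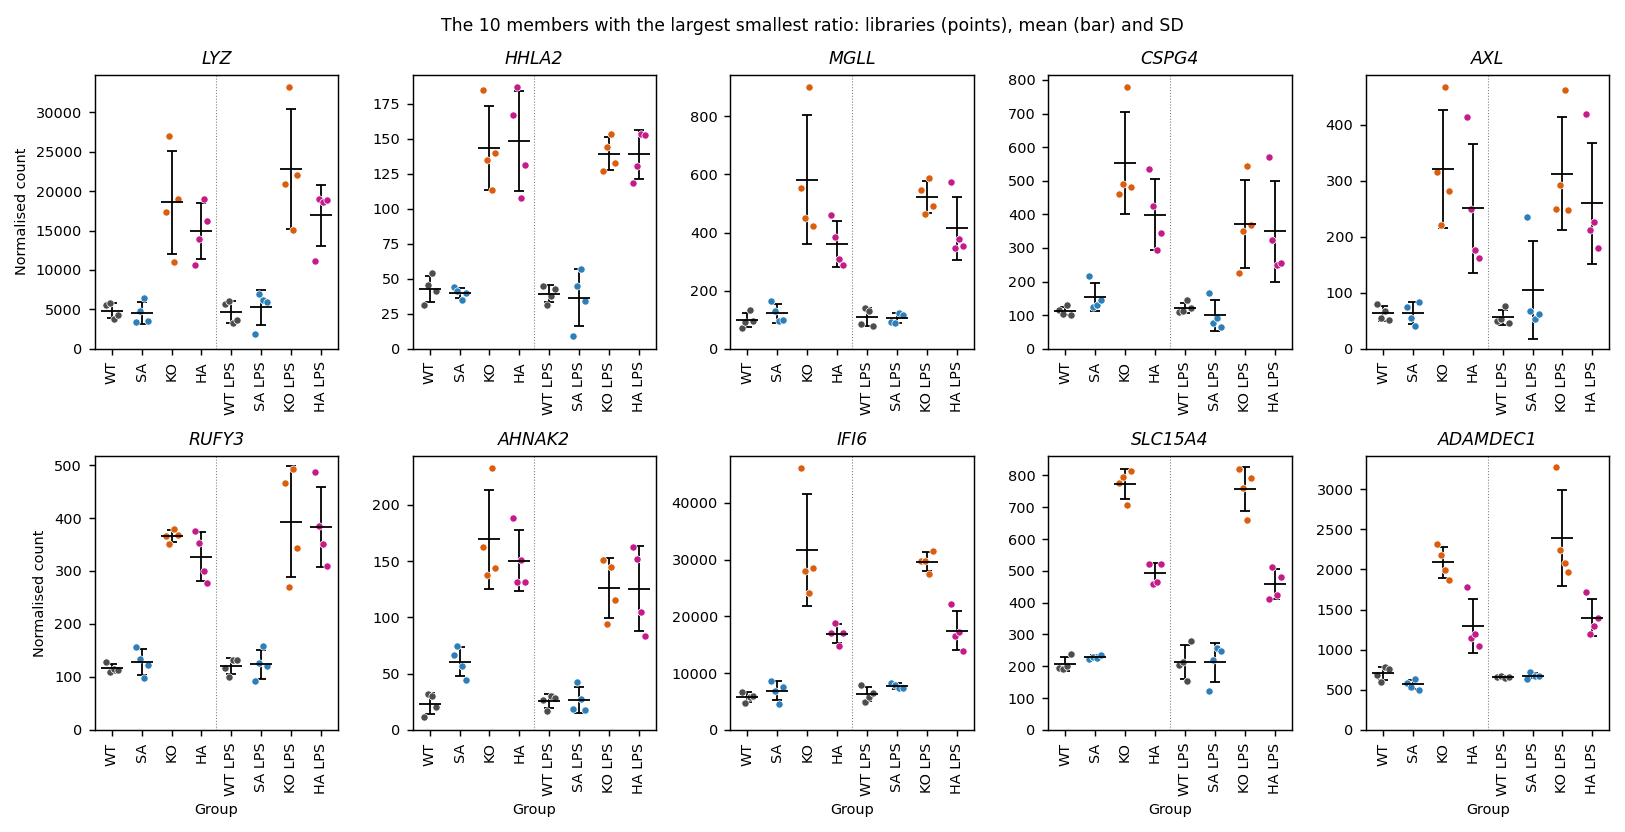
Normalized count (linear axis from 0) of the 10 genes whose smallest of the 8 ratios was largest on the deposited values. Each of the 8 groups is drawn, untreated groups to the left of the dotted line. Points are libraries in replicate order, the bar is the mean and the whiskers the SD (n = 4). KO and HA points stand above all WT and SA points in 9 of the 10 panels, and in AXL 1 SA LPS library at 236 reaches into them.

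The last group has other roles. FAM111B, a nuclear protease, read 386 ± 88.7 in WT, 369.8 ± 125 in SA, 864 ± 55.0 in KO and 710.4 ± 131 in HA cells, and SMIM14, a small membrane protein, 271 ± 42.1, 266 ± 21.0, 633 ± 109 and 636 ± 154. Both were free of overlap in all 8 comparisons. SERPINB2, an inhibitor of plasminogen activators, separated least. It read 57.3, 38.5, 14.6 and 66.5 in WT, 21.9, 27.7, 60.0 and 13.2 in SA, 110.3, 139.7, 35.1 and 141 in KO and 21.4, 27.9, 89.6 and 108 in HA, and every one of its 8 comparisons overlapped. On the deposited values, TMEM238, another small membrane protein, was nearest to the threshold with a smallest ratio of 1.51, next to UBA7 at 1.52 and FLT3 at 1.52. Just outside, on the same values, lay DEFB1, JAK2 and IGSF8 with 1.49, 1.47 and 1.46. On the shared size factors the smallest ratio was 1.93 for TMEM238, 1.92 for UBA7 and 1.65 for FLT3. All 38 members are protein-coding, and they lie on 17 chromosomes. The closest 2, FAM111B and MPEG1, are 81098 bases apart on chromosome 11. Other expressed genes overlap AHNAK2, IGSF6, ITGA7, CRYBG1, STS, HVCN1, CYP51A1 and MPEG1 on the opposite strand, as SEC61A1 does MGLL, and SLC15A4 on the same strand, so a share of their reads is uncertain.

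The next comparisons were not used by the rule. The first asks whether the members answered LPS in the lines other than WT. In limma fits over all 12406 genes, no member passed an adjusted p of 0.01 in KO cells (0.580% of all genes tested did), in HA cells (0.403%) or in SA cells (0.492%). At an unadjusted p under 0.05 there were 3, 2 and 6 members (7.89%, 5.26% and 15.8%, against 5.42%, 4.76% and 9.85% of all genes), and voom on the recovered reads called 0 in each line. The median log2 fold change of the members was 0.06 in KO, 0.10 in HA and 0.01 in SA cells, beside 0.02, 0.00 and -0.02 over all genes. A typical 95% interval of a member was 1.20 wide on the log2 scale. For comparison, the cytokine gene TNF went from 878 ± 86.6 to 1776 ± 51.4 in KO, from 763 ± 69.5 to 1477 ± 126 in HA and from 523 ± 103 to 1037 ± 282 normalized counts in SA cells. IL1B went from 173 ± 90.9 to 562 ± 211 in KO and NFKBIA, the inhibitor of NF-kB, from 4544 ± 1754 to 10277 ± 1888.

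GCH1 was the exception nearest to the limit. Untreated, its libraries held 45.8, 33.5, 39.2 and 30.6 in WT, 19.4, 26.8, 22.2 and 13.2 in SA, 70.5, 67.7, 45.9 and 64.4 in KO and 62.0, 43.9, 46.0 and 55.5 in HA. After LPS they held 41.9, 59.8, 31.7 and 34.1 in WT, 77.6, 50.7, 61.5 and 43.6 in SA, 300.1, 319, 91.4 and 171 in KO and 45.2, 131, 73.3 and 165 in HA. The KO LPS and the SA LPS libraries lay above all untreated ones of their line, while in WT and HA the states overlapped. The log2 fold change was 1.67 in KO (95% interval 0.94 to 2.39; limma adjusted p = 1.05e-02), 0.83 in HA (interval 0.10 to 1.56; 8.02e-01) and 1.48 in SA cells (interval 0.76 to 2.21; 3.94e-02). In KO, the deviations of libraries with the same replicate number correlated by 0.12, 0.58, 0.67 and 0.29, so replicate 1 was paired weakly. With the replicate block the limma adjusted p was 3.03e-03 over the 2 groups and 8.20e-03 over all groups, which passes. The block over the 2 groups was chosen after seeing the data. Without KO LPS replicate 3, the log2 fold change was 2.03 and the limma adjusted p 7.10e-04. Without the 8 farthest libraries these were 1.90 and 3.97e-04. Leaving out libraries because they deviate most lowers the spread within groups, so that smaller p-value follows in part from the choice.

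Few other members separated between untreated and LPS-treated libraries. In KO, GCH1 and FLT3 did so, both upward (3.45% of all genes in either direction), and in HA SNX20 upward (3.49%). In SA these were ADAMDEC1, GBP2 and GCH1 upward and AHNAK2 downward (4.18%), the last with a log2 fold change of -1.21 (95% interval -1.84 to -0.58; limma adjusted p = 5.82e-02). GBP2 had 0.54, 0.34 and 0.42 in KO, HA and SA cells, none of them past the limit. The difference between the LPS responses of KO and HA passed for 0 members and for 0% of all genes, 0 of the members had an unadjusted p under 0.05, and voom called 0. The median of that difference was -0.03. In WT, where the rule held the means close, MT2A alone separated, upward (2.60% of all genes in either direction).

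**Figure D3:**
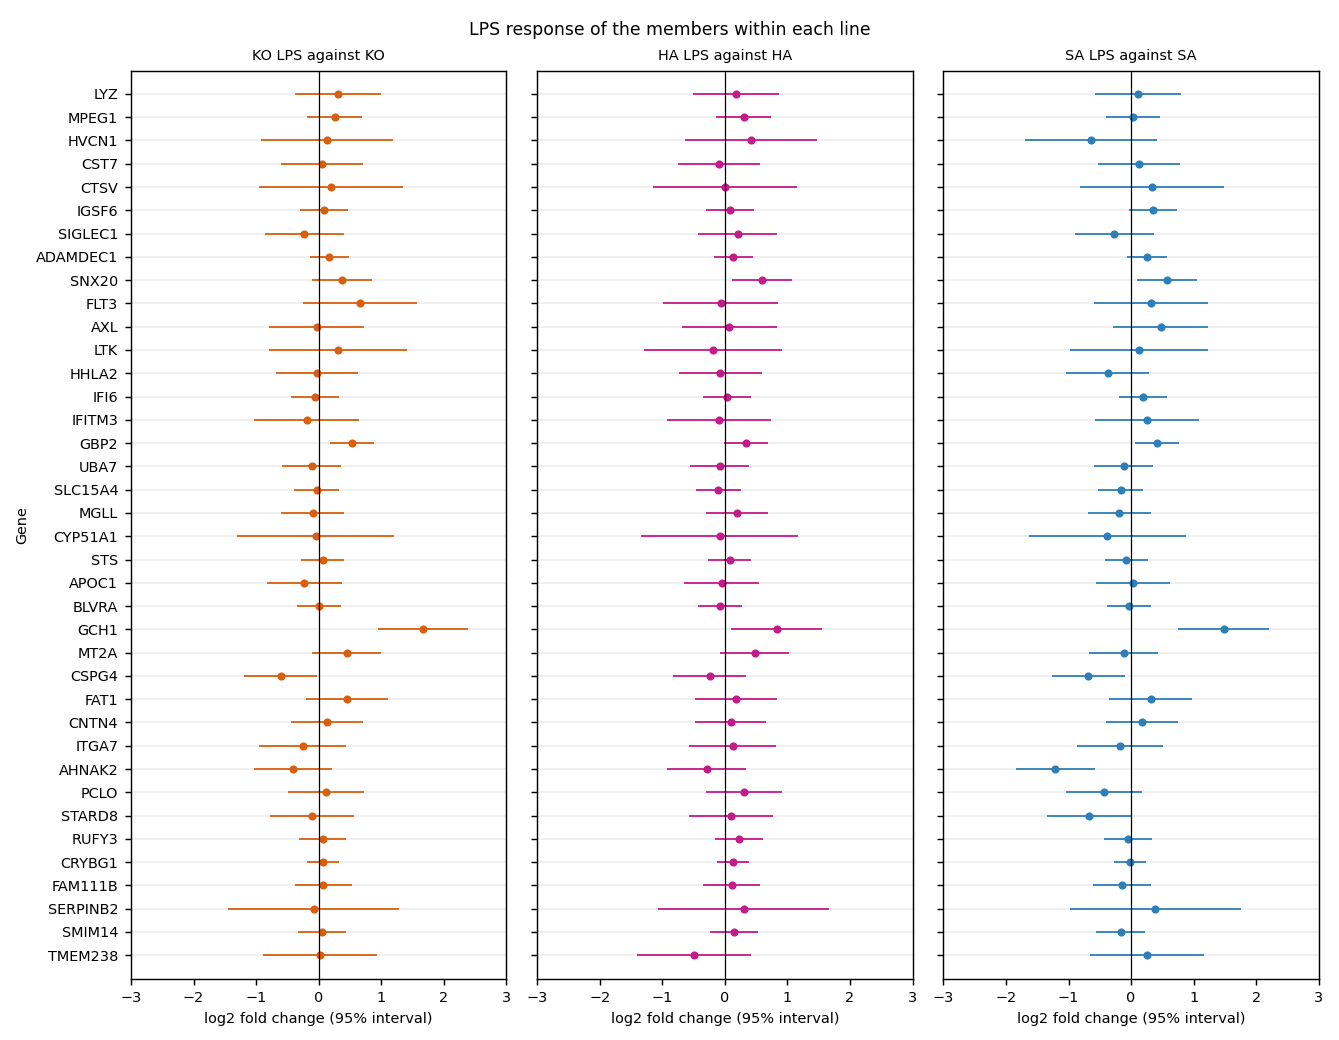
Log2 fold change of each of the 38 genes from untreated to LPS-treated cells in the KO, HA and SA lines, from the limma fit over all groups (points), with 95% intervals (lines). Most intervals include 0. GCH1 stands apart at 1.67 in KO and 1.48 in SA, and AHNAK2 lies at -1.21 in SA.

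The second comparison sets absent against inactive ACLY. No member passed the limit between KO and HA, untreated (0.226% of all genes) or after LPS (0.00806%, 1 gene, higher in KO). At an unadjusted p under 0.05 there were 7 and 8 members (18.4% and 21.1%, against 10.4% and 10.5% of all genes), and voom called 0 in both. The median of the members was 0.23 untreated and 0.18 after LPS, beside -0.01 and 0.01 over all genes, and 31 and 30 of 38 were above 0. These counts depend on the scale. On the deposited scale, where size factors were set within each line, the median of all genes was -0.24 in both states, the members' medians were -0.01 and -0.07, and 19 and 17 members were above 0. Of all genes, 25 higher and 3 lower in KO passed untreated on the shared scale, and 10 and 18 on the deposited one. After LPS, 1 and 0 became 2 and 58.

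The 3 members with levels in steps were closest to the limit. ADAMDEC1 differed by 0.72 (95% interval 0.40 to 1.03; limma adjusted p = 2.07e-02) untreated and 0.76 (2.86e-02) after LPS. IFI6 differed by 0.87 (interval 0.48 to 1.25; limma adjusted p = 2.39e-02) and 0.78 (6.10e-02). For SLC15A4 the differences were 0.65 (interval 0.29 to 1.01; limma adjusted p = 1.26e-01) and 0.73 (6.10e-02). Every KO library lay above every HA library for these 3 in both states, as did FLT3 after LPS (2.73% of all genes untreated and 2.66% after LPS). Without the 8 farthest libraries the 3 genes passed in both states, with SIGLEC1 and LTK beside them in untreated cells, while all genes called went from 28 to 1015 untreated and from 1 to 242 after LPS. SIGLEC1 then differed by 1.06 (limma adjusted p = 4.01e-03) and LTK by -1.95 (9.12e-03). Since the libraries left out were those that deviated most, the spread within groups fell by that choice. These added calls are therefore not read as support.

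LTK and APOC1 had the opposite order. LTK (chr15:41503637-41513887, minus strand) read 14.3, 20.1, 15.7 and 19.3 normalized counts in WT, 1.88, 25.0, 10.7 and 17.9 in SA, 12.8, 28.6, 33.8 and 63.5 in KO and 113, 121, 84.9 and 144 in HA cells. After LPS it read 10.5, 8.67, 29.3 and 25.4 in WT, 6.95, 7.71, 25.5 and 12.0 in SA, 21.3, 35.7, 55.6 and 45.4 in KO and 107, 55.9, 131 and 127 in HA. The HA libraries lay above all KO libraries in both states (2.25% of all genes untreated and 2.43% after LPS), while the KO libraries overlapped those of WT. The difference of KO to HA was -1.89 (95% interval -2.99 to -0.79; limma adjusted p = 1.66e-01) untreated and -1.40 (3.32e-01) after LPS. APOC1 had 227 ± 57.8 in KO and 342 ± 32.4 in HA cells and a difference of -0.62 (limma adjusted p = 4.69e-01), without overlap in untreated cells. On the shared scale, HA had the highest mean for 9 of 38 members and KO for 29, in both states. On the deposited scale this majority was lost, with HA above KO for 19 and below for 19 untreated and above for 23 and below for 15 after LPS.

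**Figure D4:**
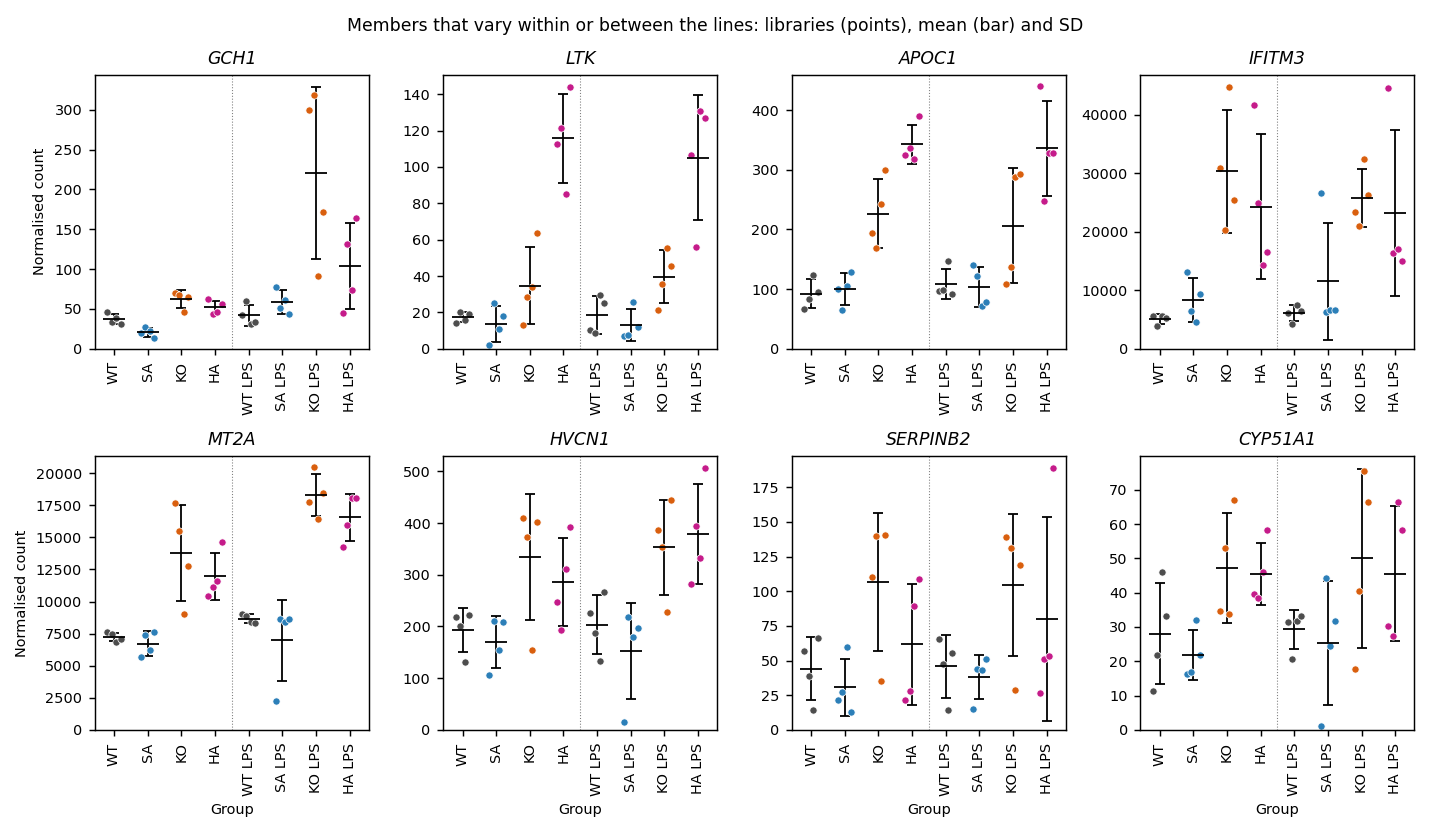
Normalized count (linear axis from 0) of 8 genes in each group, drawn as for the leading members. GCH1 is highest in KO LPS, LTK and APOC1 in HA and HA LPS, and IFITM3 and MT2A show SA LPS replicate 1 at 26526 and 2238, above and below the rest of its group.

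The third comparison sets the phosphorylation-deficient SA line against WT, both with active ACLY. No member and 0% of all genes passed the limit, untreated or after LPS. At an unadjusted p under 0.05 there were 4 members in each state (10.5%, against 3.59% and 5.21% of all genes), and voom called 0. The median of the members was 0.08 and -0.00, with 20 and 18 of 38 above 0. On the deposited scale the medians were 0.34 and 0.26, where all genes had 0.24 and 0.25. AHNAK2 had the largest difference, 1.40 (95% interval 0.78 to 2.03; limma adjusted p = 6.99e-01) untreated and 0.01 after LPS. Every untreated SA library lay above every WT library for AHNAK2, SIGLEC1 and FAT1 (2.37% of all genes) and below for GCH1 (1.85%). After LPS every SA library lay above every WT library for FAT1 (1.27%) and below for 0 members (1.35%), FAT1 with a difference of 0.79 (limma adjusted p = 8.25e-01).

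**Figure D5:**
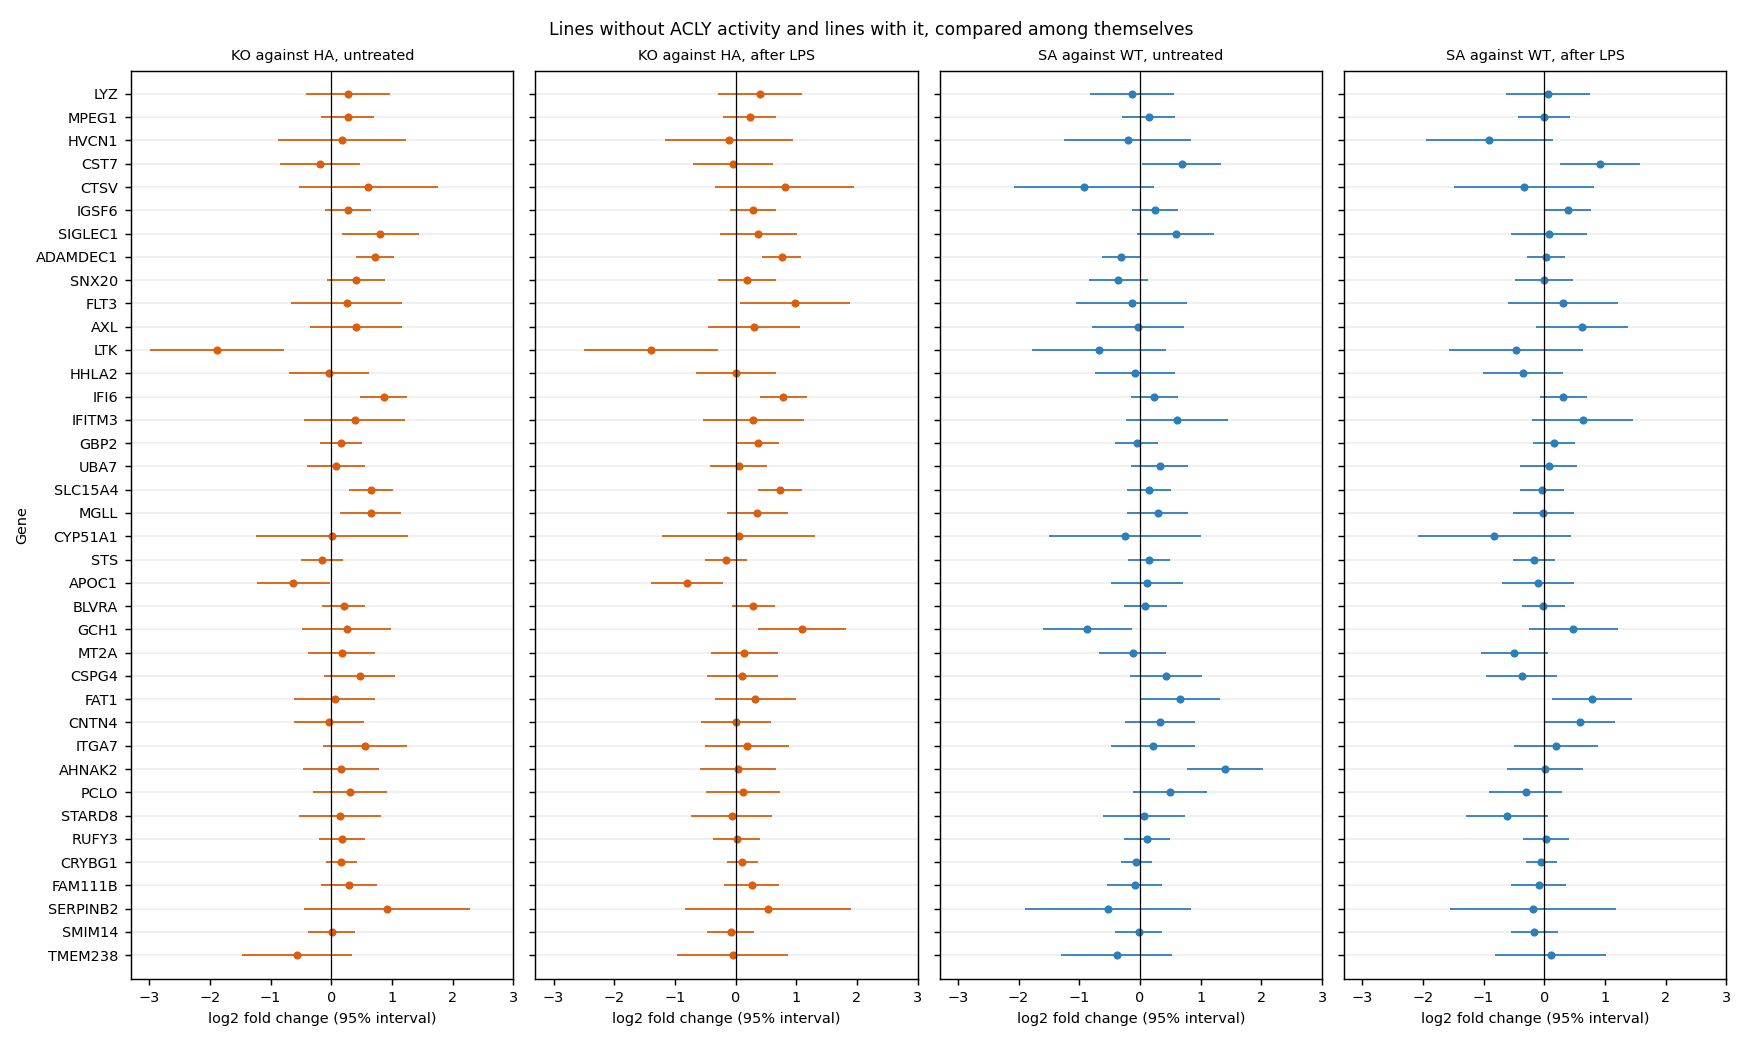
Log2 fold change of each of the 38 genes between the 2 lines without ACLY activity (KO against HA) and between the 2 lines with it (SA against WT), untreated and after LPS (points), with 95% intervals (lines). ADAMDEC1, IFI6 and SLC15A4 lie to the right and LTK and APOC1 to the left in both KO against HA panels, and AHNAK2 stands at 1.40 in untreated SA against WT.

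Within groups, some members were often highest in the farthest library and others often lowest. In 6 or more of 8 groups, 11 of 38 members were highest in it, and in 5 or more 8 were lowest. The shares of all genes with such counts were not determined, so nothing is read from them. CSPG4, ITGA7 and TMEM238 were highest in the farthest library in 8 of 8 groups, GBP2, IFITM3, IGSF6 and SIGLEC1 in 7, and AXL, MGLL, STARD8 and UBA7 in 6. LYZ was lowest in it in 8 groups, HVCN1, MT2A and SERPINB2 in 7, CTSV, SLC15A4 and SNX20 in 6 and SMIM14 in 5. Over the 304 values of 38 members in 8 groups, the farthest library was the highest in 134 (44.1%) and the lowest in 82 (27.0%). Over all genes tested these shares were 36.4% and 37.6%. The farthest library had the same number before and after LPS in all 4 lines.

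Other genes of the interferon response that are not members were compared from a list of well-known members of the pathway. The list holds 60 genes, of which 3 are members. Of the 57 others, all tested, 48 rose in KO against WT untreated and 0 fell (1.80% of all genes tested rose and 1.10% fell), and 43 rose and 0 fell after LPS (2.14% and 1.33%). In HA against WT, 23 rose and 0 fell untreated (1.42% and 1.10%) and 16 and 0 after LPS (1.16% and 0.854%). Without the 8 farthest libraries, 50 and 51 rose and 0 fell in KO, and 33 rose and 3 fell untreated and 26 and 0 after LPS in HA. Summed over the 57 genes, untreated libraries held 39351 to 45327 normalized counts in WT, 47577 to 49913 in SA, 67847 to 90605 in HA and 109379 to 134550 in KO, without overlap. The median log2 fold changes were 1.77, 1.62, 0.93 and 0.88, where all genes had medians between -0.03 and -0.01. GBP1 changed by 4.16 ± 0.30 (SE; limma adjusted p = 6.34e-11) and IFI44L by 3.16 ± 0.20 (1.26e-11) in KO against WT untreated. In HA against WT the same genes changed by 2.10 ± 0.30 (limma adjusted p = 3.21e-05) and 1.75 ± 0.20 (1.87e-06). Unlike the members, the list also holds genes that rose with LPS in WT, 7 of 57 (0.250% of all genes), with IFIT2 at 3.40 ± 0.31 (limma adjusted p = 4.72e-08) and IFIT3 at 3.25 ± 0.27 (1.15e-08). The members were chosen to lack such a response.

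Other lists named the pathways around ACLY. Of 35 genes of acetyl-CoA supply and lipid synthesis tested, limma called 0 in KO or HA against WT in either state, with 4, 12, 6 and 6 at an unadjusted p under 0.05 in KO untreated, HA untreated, KO after LPS and HA after LPS, and voom called 0. Of 30 proliferation genes it called 0, with 1, 8, 0 and 5 at an unadjusted p under 0.05, and voom called 0. Without the 8 farthest libraries, 1 acetyl-CoA gene rose and 5 fell and 1 proliferation gene rose and 4 fell in untreated HA. Of 29 histone acetyltransferase and deacetylase genes, HDAC6 rose in HA (1.08 ± 0.24 untreated, limma adjusted p = 4.93e-03). Of 17 genes of p53 and growth arrest, CDKN1A, an inhibitor of the cell cycle, rose in KO (1.44 ± 0.21, limma adjusted p = 2.39e-05) and HA (1.04 ± 0.21, 1.97e-03) untreated. Of 11 macrophage genes tested, 3 rose and 1 fell in untreated KO, with GPNMB at 2.67 ± 0.32 (limma adjusted p = 8.69e-07) and LPL at -1.47 ± 0.20 (1.06e-05), and 1 rose and 2 fell in HA. After LPS, 1 rose and 2 fell in KO and 0 rose and 2 fell in HA. Of 23 monocyte markers, 4 rose and 1 fell in KO and 1 rose and 0 fell in HA untreated, with CD14, the LPS co-receptor, at 1.66 ± 0.26 (limma adjusted p = 6.54e-05) and FCN1, a secreted lectin, at -4.26 ± 0.81 (8.66e-04) in KO. After LPS, 2 rose and 2 fell in KO and 1 rose and 3 fell in HA, where CD14 was at -1.37 ± 0.26 (limma adjusted p = 1.13e-03). Of 6 granulocyte and progenitor genes tested, limma called 0 in KO or HA against WT, with 0 in KO and 4 and 3 in HA untreated and after LPS at an unadjusted p under 0.05, and voom called 0. Without the 8 farthest libraries, 3 of the 6 rose in untreated HA and 1 in HA after LPS, and 1 fell in untreated KO. Of 4 T, B and NK cell genes tested, PAX5, a B cell transcription factor, rose in KO (1.70 ± 0.35, limma adjusted p = 2.05e-03). Of 26 genes that LPS is known to induce, 6 rose in KO and 0 in HA against WT untreated, and 8 and 3 after LPS. Without the 8 farthest libraries, 7 rose in KO and 3 rose and 3 fell in HA untreated, and 15 and 7 rose after LPS. LPS itself raised 6 of them in WT, 10 in KO, 9 in HA and 10 in SA cells.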

How the data were processed

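RNA from 32 THP-1 samples in 8 groups was sequenced with the QuantSeq 3′ kit, and the authors trimmed reads with Bbduk, aligned them to GRCh38 with STAR, counted them with HTSeq and deposited counts normalized with DESeq2. Versions, annotation and strand setting are not given in the sources used here. The deposited normalized counts had been scaled separately for each line (log2 shift against WT -0.10 in KO, 0.15 in HA and 0.26 in SA). Dividing them by the step of 1 read gave whole reads for 100.000% of values within 0.05, and these were rescaled by median-of-ratios factors over all 32 libraries. The 92 spike-in entries, with 1 read in all, were left out.

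The 12406 genes with a mean of at least 10 entered 1 limma fit (limma 3.58.1, R 4.3.3) of log2(normalized count + 1) over 8 groups with a trended prior, Benjamini-Hochberg adjustment and a limit of 0.01. Intervals cover the spread between libraries. The fit was also run on simulated counts, and nothing is read from that run here. The members, the gene lists and the tests were chosen with earlier results of these data known. Values per library are given for the 10 members with the largest smallest ratio on the deposited values, the 5 of highest mean and members near the limit. GCH1, LTK, HVCN1, CYP51A1 and SERPINB2 were added after their values were seen. In KO LPS against KO, the correlations of the deviations of the 4 pairs with the same replicate number were 0.12, 0.58, 0.67 and 0.29. KO LPS replicate 1 matched KO replicate 2 best, so the pairing by number is uncertain. Alternatives were another pseudocount, filter, scale, fit over fewer groups, replicate block, voom, library weights and leaving out libraries. Sequences and motifs came from RefSeq and positions from GENCODE, matched by gene ID or symbol.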

Additional observations from a re-analysis of the deposited data

Results flagged for a closer look

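Of 304 values of the 38 genes (38 genes in 8 groups of 4), 26 had 1 library whose gap to the nearest other library took up more of the group's range than Dixon's 95% critical value. That is 8.55%. The critical value is set for 5% of independent, normally distributed groups. These linear counts come from the same libraries, with 4 of the values in HA LPS replicate 1 and 4 in SA LPS replicate 1. The share over all genes was not determined, so 8.55% is not read as an excess. In the interferon genes, IFITM3 read 26526 in SA LPS replicate 1, above 6229.5 to 6688 in the other 3, and 44493 in HA LPS replicate 1. UBA7 read 476 in SA LPS replicate 1.

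Among products of phagocytes and immune receptors, LYZ read 11112 in HA LPS replicate 1, below 18595 to 19036 in the others. AXL read 236 in SA LPS replicate 1, SIGLEC1 339 in SA replicate 1 and IGSF6 726 in HA replicate 1. HVCN1 read 154 in KO replicate 3, SNX20 783 in HA LPS replicate 1, and MPEG1 249.9 in SA replicate 4 and 679.7 in KO LPS replicate 4. SLC15A4, the endolysosomal transporter, read 238 in WT replicate 4.

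Among metabolic genes, MGLL read 575 in HA LPS replicate 1, MT2A 2238 in SA LPS replicate 1, APOC1 147 in WT LPS replicate 3 and CYP51A1 20.8 in WT LPS replicate 2. Among adhesion genes, CSPG4 read 779.8 in KO replicate 3, CNTN4 149 in KO replicate 3 and 173 in HA replicate 1, STARD8 174 in KO LPS replicate 3 and ITGA7 103 in WT replicate 3. FAM111B read 905 in HA replicate 3 and 1248 in KO LPS replicate 1, SERPINB2 189 in HA LPS replicate 4, and TMEM238 63.8 in WT replicate 3 and 48.1 in WT LPS replicate 3.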

How the results depend on the processing

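The comparisons that the rule did not use gave 0 members in 145 of 160 recounts. A reversed sign was counted only where a member passed the limit, and 0 were found. Signs of members that did not pass did change with the scale. For KO against HA untreated, 31 members were above 0 on the shared scale and 19 on the deposited one. For SA against WT untreated these were 20 and 31. For KO LPS against KO, 1 member, GCH1, passed with a pseudocount of 5, a minimum mean of 30, the replicate block over the groups compared (1) or over all groups (1), library weights (1), and without the 8 farthest libraries (1), and leaving out 1 library gave 0 to 1. For KO against HA untreated, the replicate block gave 2 members (IFI6 and ADAMDEC1), library weights 3, leaving out the 8 farthest libraries 5 and leaving out 1 library 0 to 1, the 1 being ADAMDEC1 (0.88, limma adjusted p = 1.78e-03) without HA replicate 1. After LPS these were 1 with the block (ADAMDEC1), 2 with weights and 3 without the 8 libraries. In those 2 comparisons the samples share only a number, since not every pair correlated. For SA LPS against SA, library weights gave 2, CSPG4 (-0.85) and GCH1 (1.21). The block changed no other member call. The rule gave 66 genes on the shared scale, 32 of them members. The members CTSV, GCH1, HVCN1, PCLO, SERPINB2 and SNX20 did not pass on that scale. The rule gave 68 genes at a fold of 1.3, 8 at a fold of 2 and 65 without the condition on WT LPS. Without SA LPS replicate 1 it gave 49, 33 of them members. Over the alternatives, all genes called ranged from 21 to 121 in KO LPS, 33 to 82 in HA LPS, 3 to 158 in SA LPS, 0 to 1015 in KO against HA untreated and 0 to 242 after LPS, and 0 to 4 and 0 to 12 in SA against WT. The block over the groups compared, voom, library weights and the sets without far libraries were chosen after seeing the data. Leaving out the farthest libraries also lowers the spread within groups by its choice. Calls added in that setting, also in the gene lists, are not read as support. edgeR and DESeq2 were planned and not run. The causes were not tested. Depth limits members with fewer than 50 normalized counts in every WT library, such as LTK, FLT3 and CYP51A1.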
